A study of Mus musculus with 10 samples.

Results

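Transcripts of cytosolic ribosomal proteins and of translation initiation and elongation factors were measured in RNA from the cochlea of mice that had received germanium dioxide (GeO2) and of controls. The genes are those of the authors' deposited table of significant genes whose listed symbol begins with Rpl, Rps, Eif or Eef, with Rps6k kinases left out. They number 55 genes on 75 probe sets, of 5478 genes that the table lists under 1 symbol: 16 proteins of the large and 8 of the small ribosomal subunit, 26 initiation factors or their regulators, 2 genes of the elongation step, and 3 genes listed as Eif2c2, Eif2c3 and Eif2c4 that are now called Ago2, Ago3 and Ago4. The last 3 encode Argonaute proteins of RNA silencing, so their symbol goes against the name of the set, and they are counted apart. All animals were male CBA mice, 6 months old. The 5 GeO2 samples came from mice fed 0.15% GeO2 in the diet for 4 months, and the 5 control samples from mice on normal chow. Whether RNA of several animals was pooled in a sample is not stated by the labels. The design text counts 5 samples in each group yet states that replicates were not done. The p-values therefore speak only of differences among these samples, and some or all of that spread may be technical.

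Ribosomes are built from ribosomal RNA and ribosomal proteins, most of the proteins being needed in equal numbers. Initiation factors bring the initiator tRNA (eIF2, recharged with GTP by eIF2B), bind the mRNA cap (eIF4E), unwind the leader (eIF4A), bridge cap and ribosome (eIF4G) and scaffold the small subunit (eIF3), and elongation factors then deliver each aminoacyl-tRNA. In mammals most mRNAs of ribosomal proteins begin with an oligopyrimidine tract, through which mTOR signalling sets how well they are translated. The cochlea depends on proteins made in hair cells, supporting cells and the stria vascularis, but its RNA also holds transcripts from the blood and bone marrow cells of the surrounding bone.

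Each sample was hybridised to 1 array of 45037 probe sets. Median signals ran from 446.8 to 508.4 units, and the number of arrays limits the precision. Differences below are GeO2 minus control on the scale log2(signal + 16), with the standard error (SE). Unless stated otherwise, a gene "rose" or "fell" where limma's Benjamini-Hochberg adjusted p over 27022 probe sets was under 0.05. Each gene stands for the probe set with the highest mean among its probe sets in the authors' deposited table that passed a filter on low signals. Other probe sets of the same gene, brighter or unchanged ones included, could not be named, and its probe sets below are only those of that table. Of the probe sets tested, 16.3% were called, 8.5% higher and 7.81% lower. A gene could be named here only from the authors' deposited table, and that table was itself chosen by p-value on these arrays. A listed gene is called measured below if it was named there with a probe set above the filter. The share called among all 5116 named genes tested was already 59.4% (29.6% higher and 29.7% lower). Counts of calls among the ribosome and translation genes, and among marker and pathway genes, describe them and support nothing further.

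Of 19 cochlear markers, 6 could be named and measured, of which 1 rose, 4 fell and 1 did not pass, with summed signals of 58991 to 74073 units in control and 57536 to 78878 in GeO2. Otor, a protein secreted by spiral limbus and ligament fibrocytes, had a mean of 21200 units in control and 13700 in GeO2, and Gjb6, a gap junction protein of supporting cells that did not pass, 36200 and 41500. Kcne1 and Kcnq1, the potassium channel subunits of the stria vascularis, went from 2210 to 347 and from 2140 to 985 units, differences of −2.96 (SE 0.46) and −1.24 (SE 0.28). Esrrb was at −0.67 (SE 0.21), and Otog, a protein of the tectorial membrane, at 0.73 (SE 0.23). The brightest genes carry the summed signals; the mean log2 value of the 6 markers ran from 12.27 to 12.78 in control and from 11.10 to 12.25 in GeO2, without overlap. Markers of other cells could likewise be named only from the authors' deposited table, chosen by p-value, over whose named genes 59.4% were called. Markers without an entry there were not examined. Of 26 erythroid markers, 23 were measured, 22 fell, 1 did not pass and none was at 0, with summed signals of 164271 to 293025 units in control and 71589 to 149182 in GeO2. All 26 of the 28 markers of dividing cells that were measured fell (77408 to 148546 units in control, 35681 to 83876 in GeO2). All 4 measured macrophage markers of 11 rose (7228 to 13503 units in control, 10451 to 35130 in GeO2), as did the 2 measured neutrophil markers of 13 (460 to 1717 and 2932 to 25941 units). Of 8 bone markers, 2 were measured: Dmp1 rose by 0.80 (SE 0.23) and Sp7 did not pass (−0.25, SE 0.14). None of 9 B cell markers and none of 11 skeletal muscle markers could be named. In RNA of a whole tissue, fewer cells of a type and less RNA per cell cannot be told apart. The part of these cell types in the results below was not tested.

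The ribosomal protein genes of this set did not all move the same way. Those outside the authors' deposited table were not examined, so the family as a whole is not described. Of 24 genes, 23 passed the filter on low signals; 9 fell, 6 rose and 8 did not pass, beside 16.3% called among all probe sets and 59.4% among all named genes. Their differences ran from −1.26 to 1.04 with a median of −0.38, against a median of −0.23 over all named genes and −0.02 over all probe sets tested. Positive differences numbered 9 of 23, and 2517 of 5116 over all named genes. Few differences lie near 0 in a table chosen by p-value, so such medians follow the balance of signs and are not typical shifts. The 6 rises and 9 falls lay in both subunits: 3 rises and 6 falls among 16 large subunit genes, 3 rises and 3 falls among 7 small subunit genes. Without GeO2 replicate 5 the falls numbered 5, and without control replicate 1 the rises numbered 3.

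**Figure D1:**
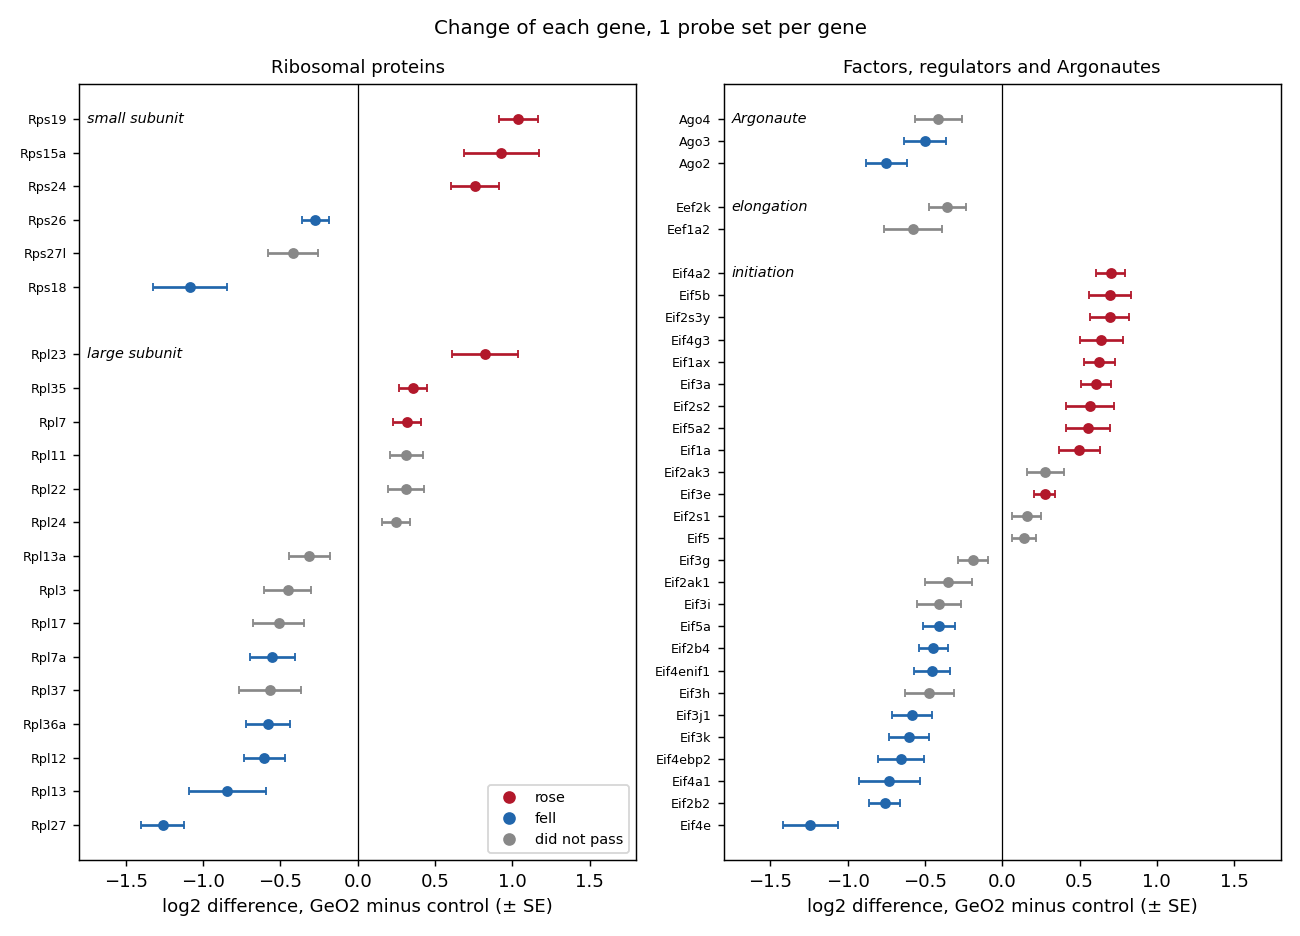
Log2 difference (GeO2 minus control) with its SE on the horizontal axis for 52 genes in rows, grouped by role, ribosomal proteins on the left and factors, regulators and Argonautes on the right. Red marks genes that rose, blue genes that fell and grey genes that did not pass; rises and falls stand side by side in both subunits and among the initiation factors, from −1.26 for Rpl27 to 1.04 for Rps19.

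In the large subunit, Rpl27 fell most. Rpl27 (eL27 in the uniform nomenclature) is a large subunit protein with no bacterial counterpart. Its signal was 26006, 26644, 28151, 23144 and 23986 units in control replicates 1 to 5, and 12223, 9184, 14917, 9195 and 8804 units in GeO2 replicates 1 to 5. Every GeO2 array lay well below every control array, a change of −1.26 (SE 0.14), or 2.4-fold (limma, adjusted p = 0.000494). Rpl13 (eL13) fell by 0.84 (SE 0.25, adjusted p = 0.0361 in limma), but its arrays overlapped: controls ran from 11721 to 23692 units and GeO2 arrays from 6191 to 15334. Rpl13 no longer passed in 6 of the 10 fits that each omit 1 array, those without GeO2 replicate 2, 4 or 5, or control replicate 1, 2 or 3 (adjusted p at most 0.0904). Rpl12, a protein of the stalk base to which elongation factors are drawn, fell from 17305 ± 882 to 11605 ± 2786 units (SD, n = 5), or by 0.60 (SE 0.13), with no overlap between groups. Rpl36a changed by −0.58 (SE 0.14) and Rpl7a by −0.55 (SE 0.14). Rpl7a did not pass without GeO2 replicate 4 or 5 (adjusted p at most 0.0579 in limma).

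The large subunit genes that rose were Rpl23, Rpl35 and Rpl7. Rpl23 (uL14), which lies at the interface between the subunits and also binds Mdm2, rose from 325 ± 80.8 to 585 ± 135 units (SD, n = 5), a difference of 0.82 (SE 0.21, adjusted p = 0.0197 in limma), at a low signal and with the call lost without GeO2 replicate 5 or control replicate 1. Rpl35 (uL29), a neighbour of the exit tunnel, rose at both of its probe sets, by 0.36 (SE 0.09) and 0.85 (SE 0.12). On the brighter of these, controls read 14370 to 18938 units and GeO2 arrays 20530 to 22201, without overlap. Rpl7 (uL30) rose at each of its 3 probe sets in the authors' deposited table, by 0.32 (SE 0.09), 0.85 (SE 0.14) and 1.76 (SE 0.29). The smallest of these belongs to the brightest probe set, which did not pass in 6 of the 10 fits that each omit 1 array (GeO2 replicate 3, 4 or 5, or control replicate 1, 4 or 5; adjusted p at most 0.0792 in limma). The other 7 large subunit genes did not pass. Rpl17 (−0.51, SE 0.17, adjusted p = 0.0525 in limma), Rpl3, a core protein near the peptidyl transferase centre (−0.45, SE 0.15, adjusted p = 0.0565), and Rpl11, which with the 5S RNA particle can bind Mdm2 (0.31, SE 0.11, adjusted p = 0.0621), came closest to the threshold. Rpl37 (−0.57), Rpl13a (−0.31), Rpl22 (0.31) and Rpl24 (0.25) made up the rest.

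In the small subunit, Rps19 showed the largest rise and Rps18 the largest fall. Rps19 (eS19), needed to mature the small subunit and the gene most often mutated in human Diamond-Blackfan anaemia, had signals of 9316, 8852, 9503, 9262 and 7910 units in control replicates 1 to 5, and 15202, 17946, 23970, 15401 and 20912 units in GeO2 replicates 1 to 5. The lowest GeO2 array stood clearly above the highest control, a rise of 1.04 (SE 0.13), or 2.05-fold (limma, adjusted p = 0.000676). Rps24 (eS24), another gene of that human anaemia, read 11802, 18796, 15782, 10617 and 9972 units in control and 20650, 22779, 21844, 24380 and 20544 units in GeO2. The groups did not overlap and the rise was 0.76 (SE 0.16, adjusted p = 0.00676 in limma). Rps15a (uS8) rose by 0.93 (SE 0.24), with controls spread from 5514 to 13789 units and GeO2 arrays from 12587 to 21237; its call was lost without GeO2 replicate 4 or control replicate 1 (adjusted p up to 0.0565).

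Rps18 (uS13), a protein of the head of the small subunit, had signals of 20503, 31805, 24648, 13840 and 14931 units in control and 8839, 7322, 15691, 8135 and 9243 units in GeO2. GeO2 replicate 3 overlapped the lowest 2 controls, and the fall was 1.09 (SE 0.24, adjusted p = 0.00941 in limma). Rps26 (eS26), near the mRNA exit channel, changed by −0.28 (SE 0.09, adjusted p = 0.0451 in limma), and did not pass in 7 of the 10 fits that each omit 1 array (GeO2 replicate 2, 4 or 5, or control replicate 1, 2, 3 or 5; adjusted p at most 0.109). Rps27l, a p53-induced relative of Rps27, did not pass (−0.42, SE 0.16, adjusted p = 0.0915). Rps6, the substrate of S6 kinases, had 1 probe set in the authors' deposited table, which was below the filter and was not tested. Its means were 206 ± 66.1 units in control and 334 ± 39.2 in GeO2 (SD, n = 5). A further 6 probe sets list a ribosomal protein together with other loci and are left unnamed: 4 rose, 2 did not pass, and 5 of the 6 differences were positive (−0.43 to 0.80).

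Within each treatment group, ribosomal protein genes shared an order of arrays that the choice of genes did not use. GeO2 replicate 3 was the highest of the 5 GeO2 arrays for 15 of 23 ribosomal protein genes (65.2%), against 23.1% of all probe sets tested and 4 of 26 initiation factor genes. Among controls, replicate 2 or 3 was the highest for 21 of 23 (91.3%), against 44.9% of all probe sets and 9 of 26 initiation factor genes (34.6%). The order held among genes with a negative and with a positive difference: GeO2 replicate 3 was highest for 10 of 14 and for 5 of 9. These arrays were picked after their values were seen, and the count was not tested. The erythroid markers had another order. Their mean log2 value was lowest in GeO2 replicate 3 (9.30, against 10.07 to 11.54 in the other GeO2 arrays), where most ribosomal protein genes were highest, and lowest among controls in replicate 3 (11.59, against 12.59 to 12.81). The markers of dividing cells were likewise lowest among controls in replicate 3 (10.66, the others 11.40 to 11.77). In GeO2 replicate 3 (9.42) they were close to the lowest, replicate 4 (9.40). The 4 macrophage markers ran partly with the ribosomal protein genes. Their mean was highest among controls in replicate 3 (10.33), then replicate 2 (10.09, the others 9.87 to 9.90), and in GeO2 replicate 3 (11.74) was second to replicate 5 (12.37). The part of cell content in the array order was not tested. With GeO2 replicate 3 and control replicates 2 and 3 left out, an alternative chosen after seeing the data, 7 ribosomal protein genes rose and 7 fell, and the median was −0.33.

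**Figure D2:**
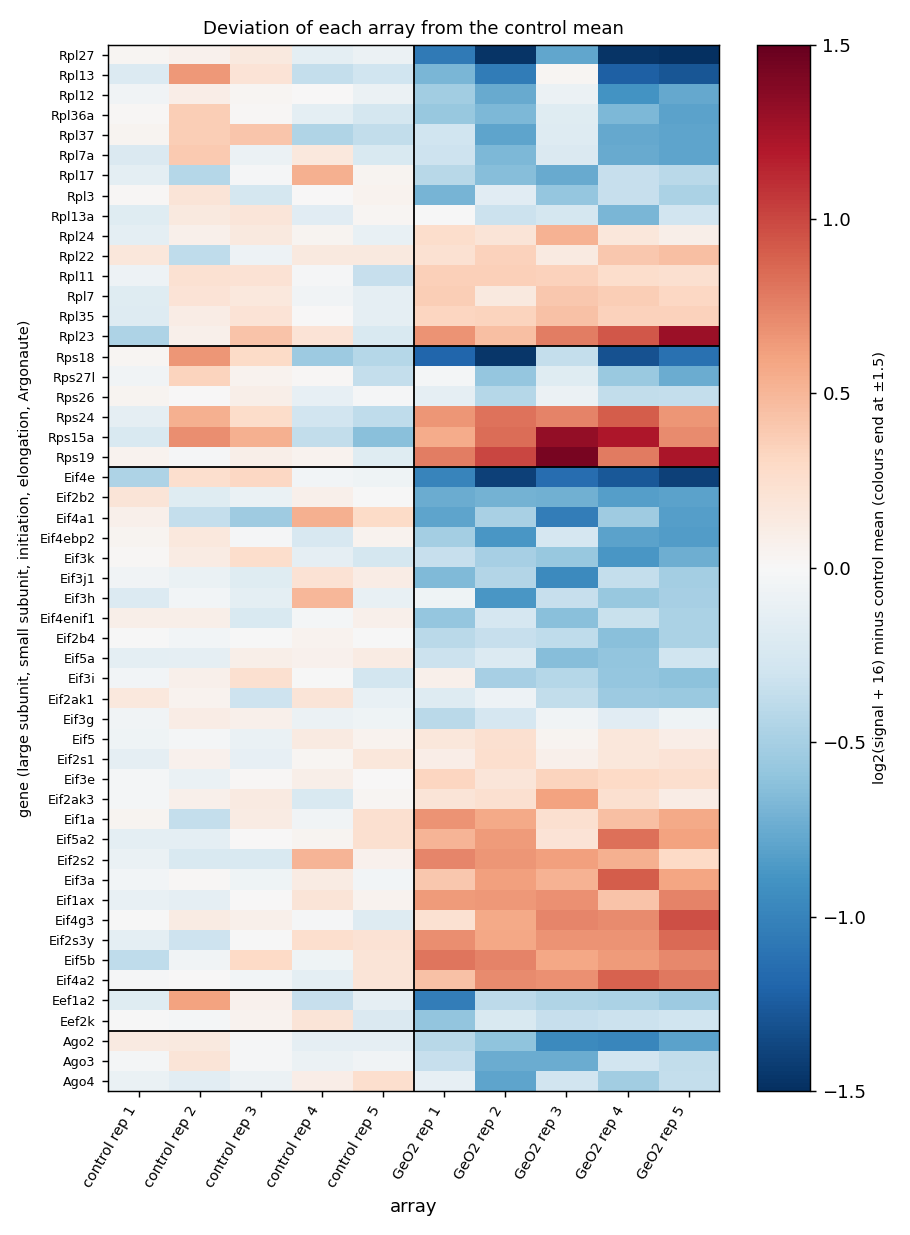
Deviation of log2(signal + 16) from the control mean, by colour, for 52 genes (rows, grouped by role and ordered by their difference) on the 10 arrays (columns, controls left of the line). Among controls, replicate 2 or 3 is the highest in 19 of the 21 ribosomal protein rows drawn, and among GeO2 arrays replicate 3 is the highest in 13.

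Probe sets of 1 gene can differ because they read different ends or forms of its transcripts, and names ending in _x_at or _s_at mark probe sets whose probes also match other transcripts. Such probes matter for ribosomal proteins, which have many processed pseudogenes. Only probe sets in the authors' deposited table, chosen by p-value, were examined, so probe sets of the same gene that did not change are unseen. Of 33 probe sets of ribosomal proteins, 13 carry these endings, and of 37 for initiation factors, 5. Among the ribosomal protein genes read on such a probe set, 4 of 8 rose and 1 fell (median 0.32). On the other endings 2 of 15 rose and 8 fell (median −0.45). This split depends on taking the brightest probe set of a gene. Rpl7 and Rpl35, counted as rises on shared-probe endings, rose by 0.85 each on a probe set with another ending, and with all shared-probe endings left out 4 of 18 ribosomal protein genes rose and 8 fell (median −0.35). The part of shared probes in this split was not tested. Rps18 and Rps15a were each read on only 1 probe set, with the endings _x_at and _s_at. Rps24 had the most probe sets. Of 6, 5 passed the filter, with differences of 0.45 to 0.76, 3 of them called higher. These 3 all end in _x_at. The only tested Rps24 probe set without a shared-probe ending was at 0.45 (SE 0.18) and did not pass (adjusted p = 0.0999 in limma). One of the 3 (0.60, SE 0.17) did not pass without GeO2 replicate 2, 3 or 5 or control replicate 1, 4 or 5 (adjusted p at most 0.0668 in limma). One probe set of Rpl7, ending in _x_at, read 5052, 17102, 6229, 5110 and 4464 units in control and 25294, 21674, 19442, 24804 and 21157 in GeO2, so control replicate 2 alone stood between the groups.

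**Figure D3:**
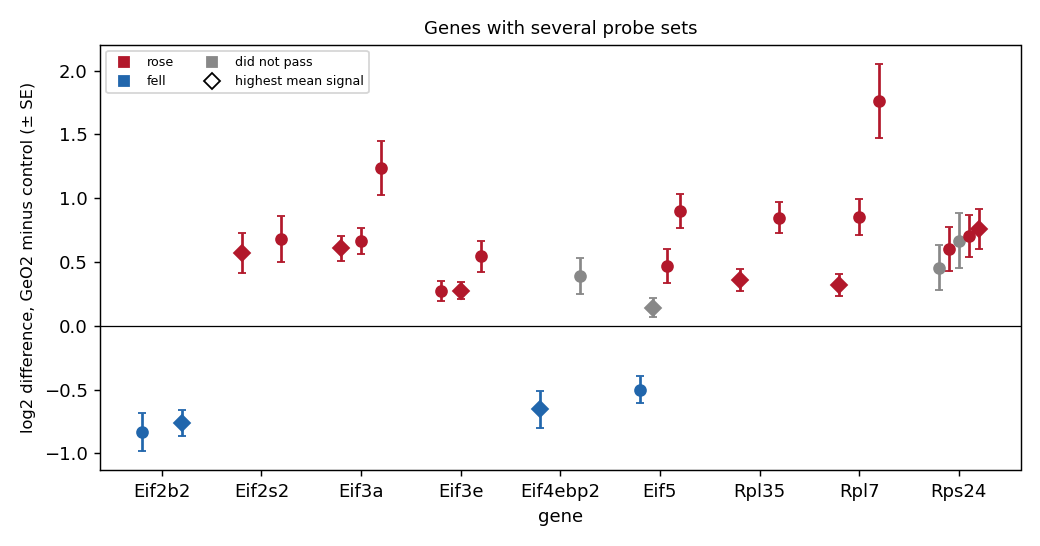
Log2 difference (GeO2 minus control, vertical axis, with SE) of each probe set for 9 genes with several probe sets above the filter, diamonds marking the brightest. Only probe sets in the authors' deposited table, chosen by p-value, are shown. Colours are red for a rise, blue for a fall and grey for no call; probe sets lie on 1 side of 0 for 7 genes, and on both sides for Eif5 and Eif4ebp2.

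The starts of these genes were read from RefSeq promoters (GRCm38.p6), which hold 45 of the 55 genes. A gene with several listed starts was counted for a feature if any of them held it. An oligopyrimidine start, taken as a C followed by at least 4 bases that are each C or T and beginning within 5 bases of the annotated start, was present in 10 of 19 ribosomal protein genes (52.6%), 5 of 22 initiation factor genes (22.7%), 20 of 46 other Rpl and Rps genes (43.5%) and 21.2% of all 27025 genes. It was found in 3 of 5 ribosomal protein genes that rose and 4 of 7 that fell, so both directions held it. A run of at least 8 bases that are each C or T, overlapping the 10 bases before or after the start, occurred in 10 of 19 ribosomal protein genes and 15.8% of all genes. The motif CCGGAAG on either strand of the 300-base window, which ETS family factors bind, occurred in 7 of 19 ribosomal protein genes (36.8%), 9 of 22 initiation factor genes (40.9%) and 9.93% of all genes. TATAAA from 40 to 20 bases before the start occurred in none of the 19 and in 2.25% of all genes. The 40 bases centred on the start, the most upstream one where RefSeq lists several, are printed for Rpl27, Rps18, Rps19 and Rps15a, with the largest falls and rises, and for 4 other genes that passed and hold the tract, 5′ to 3′ on the gene's strand, with the longest run of C and T near the start in capitals.
Rpl27, fell, chr11:101442225-101442264, plus strand: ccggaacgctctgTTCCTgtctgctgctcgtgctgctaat
Rps18, fell, chr17:33955646-33955685, minus strand: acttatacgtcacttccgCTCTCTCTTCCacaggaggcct
Rpl7a, fell, chr2:26910787-26910826, plus strand: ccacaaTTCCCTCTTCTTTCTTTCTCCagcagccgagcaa
Rps26, fell, chr10:128626487-128626526, minus strand: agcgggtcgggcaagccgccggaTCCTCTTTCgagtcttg
Rps19, rose, chr7:24884572-24884611, plus strand: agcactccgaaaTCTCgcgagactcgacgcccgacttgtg
Rps15a, rose, chr7:118116128-118116167, minus strand: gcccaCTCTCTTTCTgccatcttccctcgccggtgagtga
Rps24, rose, chr14:24490658-24490697, plus strand: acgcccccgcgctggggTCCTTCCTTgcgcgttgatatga
Rpl35, rose, chr2:39005112-39005151, minus strand: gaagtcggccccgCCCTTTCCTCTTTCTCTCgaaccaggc
The tract at the start runs to 21 bases in Rpl7a, which fell, and to 18 in Rpl35, which rose. Rpl27 and Rps19, with the largest fall and rise, have runs of 5 and 4 bases that end before the annotated start printed. In RefSeq that start need not be the one most used.

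Among the 26 initiation factor and regulator genes, all of which passed the filter, 10 rose, 9 fell and 7 did not pass, beside the same 16.3% and 59.4%. Their median difference was −0.02 and their range −1.24 to 0.70. The genes of 1 complex did not always move together, as the following groups show.

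In the cap-binding group, the 6 genes named in the authors' deposited table all passed, 2 up and 4 down, beside 59.4% called among all its named genes. That table was chosen by p-value on these arrays, and other genes of the group were not examined. Eif4e, the cap-binding protein, had 1 probe set in the authors' deposited table, a dim one, and any others were not examined. This probe set read 559, 922, 963, 750 and 741 units in control and 382, 282, 342, 312 and 282 in GeO2. No arrays overlapped, and the fall was 1.24 (SE 0.18), or 2.36-fold (limma, adjusted p = 0.00141). Eif4ebp2, which holds eIF4E inactive until mTOR phosphorylates it, fell by 0.66 (SE 0.15) at its brighter probe set and was 0.39 higher (SE 0.14) at the dimmer, which did not pass (adjusted p = 0.0805 in limma). Eif4enif1, which carries eIF4E into the nucleus and into processing bodies, changed by −0.46 (SE 0.12); its call was lost without control replicate 1 (adjusted p = 0.0539). Eif4g3, a scaffold protein of the eIF4G type, rose by 0.64 (SE 0.14).

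The helicase genes Eif4a1 and Eif4a2, which encode closely related proteins, moved in opposite directions. Eif4a2 read 20738, 21040, 20279, 18954 and 23964 units in control and 28355, 34351, 33672, 38694 and 36099 in GeO2, a rise without overlap of 0.70 (SE 0.09, adjusted p = 0.000932 in limma). Eif4a1 read 2568, 1906, 1686, 3530 and 2976 units in control and 1409, 1745, 1183, 1683 and 1376 in GeO2, a fall of 0.73 (SE 0.20, adjusted p = 0.0244). Control replicate 3 of Eif4a1 lay inside the GeO2 range, and it did not pass in 5 of the 10 fits that each omit 1 array (GeO2 replicate 3 or 5, or control replicate 1, 4 or 5; adjusted p at most 0.0584). A similar pair is Eif5a and Eif5a2, the proteins modified with hypusine that help stalled ribosomes form peptide bonds: Eif5a fell by 0.41 (SE 0.10) and Eif5a2 rose by 0.56 (SE 0.14), the latter not without control replicate 1 (adjusted p = 0.053). Whether 2 genes of a pair differ in response was not tested.

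**Figure D4:**
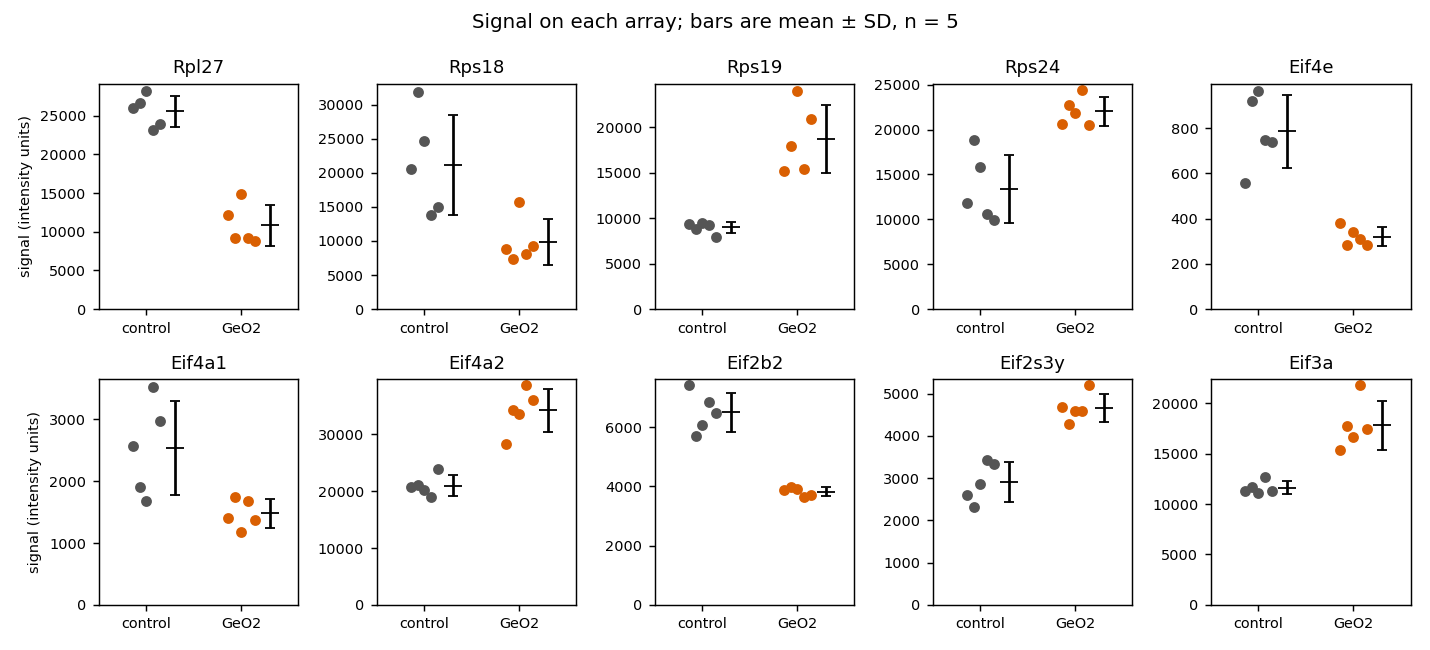
Signal in intensity units (vertical axes, from 0) on each control (grey) and GeO2 (orange) array for 10 genes, with the mean and SD (n = 5) as a bar. GeO2 arrays lie below all controls for Rpl27, Eif4e and Eif2b2 and above all controls for Rps19, Rps24, Eif4a2, Eif2s3y and Eif3a, and overlap them for Rps18 and Eif4a1.

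For the factor that carries the initiator tRNA, 2 of 3 subunit genes of eIF2 rose and both measured genes of its exchange factor eIF2B fell. Among all named genes of the authors' deposited table, chosen by p-value, 29.6% were called higher and 29.7% lower. These counts therefore describe the genes only. Eif2s3y, the Y-linked gene of the gamma subunit, rose from 2904 ± 476 to 4668 ± 329 units (SD, n = 5), by 0.70 (SE 0.13), with no overlap. Eif2s2, the beta subunit, rose at both probe sets, by 0.57 (SE 0.15) and 0.68 (SE 0.18), but the brighter did not pass without GeO2 replicate 2 or control replicate 1, 2 or 3 (adjusted p at most 0.0625 in limma), nor the dimmer without GeO2 replicate 5 or control replicate 1 or 5 (at most 0.06). Eif2s1, the alpha subunit that stress kinases phosphorylate, did not pass (0.16, SE 0.09, adjusted p = 0.277). Eif2b2, the beta subunit of eIF2B, had signals of 7424, 5708, 6064, 6841 and 6470 units in control and 3873, 3967, 3921, 3631 and 3695 in GeO2. Its GeO2 arrays were tightly grouped and all below control, a fall of 0.76 (SE 0.10, adjusted p = 0.000846 in limma), with 0.83 (SE 0.15) at the other probe set. Eif2b4, the delta subunit, fell by 0.45 (SE 0.09), from 5078 ± 107 to 3730 ± 276 units (SD, n = 5). The kinase genes did not pass: Eif2ak3, the kinase PERK of endoplasmic reticulum stress, was at 0.28 (SE 0.12, adjusted p = 0.134) and Eif2ak1, the haem-regulated kinase abundant in red cell precursors, at −0.35 (SE 0.15, adjusted p = 0.137). A second, dim probe set of Eif2ak1 was below the filter, at 152 ± 57.3 units in control and 57.6 ± 55.3 in GeO2.

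Of the 7 eIF3 subunit genes, 2 rose, 2 fell and 3 did not pass, beside 59.4% called among all named genes. Eif3a (listed as Eif3s10), the largest subunit and part of the core, rose at all 3 of its probe sets in the authors' deposited table. The rises were 0.61 (SE 0.10), 0.66 (SE 0.10) and 1.24 (SE 0.21). The brightest read 11330, 11714, 11119, 12671 and 11302 units in control and 15335, 17776, 16681, 21837 and 17450 in GeO2, without overlap. Eif3e (Eif3s6) rose at all 3 of its probe sets by 0.27 to 0.54, but the one with the smallest difference did not pass in 7 of the 10 fits that each omit 1 array (GeO2 replicate 1, 3 or 5, or control replicate 1, 2, 3 or 5; adjusted p at most 0.0815 in limma). Eif3k (Eif3s12), a subunit outside the functional core, fell by 0.60 (SE 0.13), and Eif3j1 (Eif3s1), the loosely bound subunit that binds at the decoding centre, by 0.58 (SE 0.13). Eif3h (Eif3s3) and Eif3i (Eif3s2) stood at −0.47 and −0.41, with adjusted p = 0.062 and 0.0625 in limma, and Eif3g (Eif3s4) at −0.19. In Eif3h control replicate 4 (19871 units, the other controls 12210 to 13628) stood apart, and in Eif3i GeO2 replicate 1 did (10146 units, the others 6285 to 7154). Eif3i was called without that array (adjusted p = 0.00791).

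Of the factors of scanning and subunit joining, Eif1a, Eif1ax and Eif5b rose. Eif1ax, the X-linked eIF1A gene listed in the table as Eif1ay, rose from 5367 ± 501 to 8303 ± 667 units (SD, n = 5), by 0.63 (SE 0.10, adjusted p = 0.00233 in limma), and Eif1a by 0.50 (SE 0.13). Both kept their groups apart on all arrays, though the call of Eif1a was lost without GeO2 replicate 5 or control replicate 2 (adjusted p up to 0.0573). Eif5b, the GTPase that joins the subunits, rose from 1683 ± 302 to 2705 ± 163 units (SD, n = 5), by 0.70 (SE 0.14). Eif5, which triggers GTP hydrolysis on eIF2, gave opposite results on its 4 probe sets. The brightest did not pass (0.14, SE 0.07, adjusted p = 0.22), 2 rose, by 0.47 (SE 0.13) and 0.90 (SE 0.13), and 1 fell by 0.50 (SE 0.11). The smaller rise did not pass without GeO2 replicate 2 or 3 or control replicate 1 or 3 (adjusted p at most 0.0768). The one that rose most read 7209, 7360, 5972, 8447 and 10214 units in control and 13012, 16106, 13808, 15990 and 13330 in GeO2. The one that fell read 17192, 18285, 16931, 15817 and 13952 units in control and 11956, 11385, 13845, 11258 and 9775 in GeO2, so that both separated the groups, in opposite directions.

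Of the elongation step only Eef1a2 and Eef2k could be named, and neither passed. Eef1a2, the form of eEF1A found in muscle and neurons, read 1268, 2194, 1513, 1130 and 1314 units in control and 698, 1100, 1054, 1033 and 981 in GeO2. All GeO2 arrays were below all controls, but the controls were spread, and the difference of −0.58 (SE 0.19) had an adjusted p of 0.0515 in limma. Eef2k, the kinase that slows elongation by phosphorylating eEF2, ran from 1727 to 2308 units in control and 1335 to 1708 in GeO2, again without overlap, with a difference of −0.36 (SE 0.12, adjusted p = 0.0608). Both were lower at an unadjusted p under 0.05 in limma, which adds nothing, since the table they come from was chosen by p-value on these arrays. Neither passed in the main fit, and under a stricter filter that removes the dimmest 60% of probe sets both passed. Of the Argonaute genes, Ago2, which cuts target RNA, fell by 0.75 (SE 0.13), from 4294 ± 417 to 2566 ± 440 units (SD, n = 5). Ago3 fell by 0.50 (SE 0.14), but not without GeO2 replicate 2 or 3 or control replicate 1 or 2 (adjusted p at most 0.0647), and Ago4 did not pass (−0.41, SE 0.15, adjusted p = 0.0802).

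Some symbols that differ by a letter name unrelated proteins and should not be read as pairs. Rpl7 (uL30) rose where Rpl7a (eL8) fell, and Rpl13 (eL13) fell where Rpl13a (uL13) was at −0.31 and did not pass. Another 8 genes, outside the rule because the table lists them under older names, now carry such symbols. Rpl22l1, the paralogue of Rpl22, rose by 0.36 (SE 0.11, adjusted p = 0.0361 in limma), beside 0.31 for Rpl22, which did not pass. Rps4l, a relative of the small subunit gene Rps4x, fell by 0.68 (SE 0.18, adjusted p = 0.0213). Rpsa, listed as Lamr1, fell by 0.45 (SE 0.10), and Eif2a, an alternative initiator tRNA carrier, rose by 0.36 (SE 0.12, adjusted p = 0.0495). Eif2ak2, the kinase PKR, did not pass (−0.75, SE 0.27, adjusted p = 0.0772). Of the lysine methyltransferase genes for eEF1A, Eef1akmt1 fell by 0.43 (SE 0.13) and Eef1akmt2 did not pass (0.29, SE 0.12). Eif1ad gave −0.47 (SE 0.13), which passed, on one probe set and 0.25 (SE 0.12), which did not, on the other.

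Set side by side, ribosomal proteins had 6 rises and 9 falls of 23 genes and a median of −0.38, and initiation and elongation genes, regulators included, 10 rises and 9 falls of 28 genes and a median of −0.27. That median depends on which genes are pooled: it was −0.02 for the 26 initiation genes and 0.15 for the 22 of them that are not regulators. Positive differences numbered 9 of 23 and 13 of 28, against 2517 of 5116 over all named genes. The median size of the difference, regardless of sign, was 0.52 for ribosomal proteins, 0.56 for the 28 genes and 0.51 over all named genes. The 5 arrays of each group did not overlap for 8 of 23 ribosomal protein genes and 18 of 28 factor genes, beside 12.2% of all probe sets and 43.2% of all named genes. No test of these differences between the families was made.

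Other genes of translation, from lists of the pathway, are given beside these. They too could be named only from the authors' deposited table, over whose named genes 29.6% were called higher and 29.7% lower with a median of −0.23. That median comes from 2517 positive and 2599 negative differences, so it is not a typical shift. No list was tested as a set. Of 91 genes of ribosome biogenesis, 36 were measured; 16 rose and 7 fell, and the median over the 36 was 0.37. Among them the nucleolar protein genes Ncl and Npm1 rose by 0.36 (SE 0.11) and 0.38 (SE 0.07), and the RNA helicase genes Ddx10 and Ddx21 by 0.81 (SE 0.14) and 0.57 (SE 0.12). Fbl, the methyltransferase fibrillarin, fell by 0.94 (SE 0.16), and Nop10, of the pseudouridylation particle, by 0.73 (SE 0.10). Of 23 genes for aminoacyl-tRNA synthetases and their scaffold, 9 were measured; 4 rose and 2 fell, Aimp1 by 0.59 upward and Wars by 0.64 downward. Of 31 genes for other translation and nascent chain proteins, 16 were measured; 7 rose and 4 fell. Pabpc1 and Pabpc4, which bind the poly(A) tail, fell by 0.38 (SE 0.09) and 1.06 (SE 0.21), and Btf3, of the nascent chain complex, rose by 0.71 (SE 0.14).

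In the mTOR list, 13 of 31 genes were measured; 5 rose and 5 fell. Of the Ragulator complex that anchors mTORC1 on lysosomes, Lamtor1 stood at −0.84 (SE 0.14), Lamtor2 at −1.11 (SE 0.15) and Lamtor5 at −0.74 (SE 0.11), and all 3 fell. Deptor, an inhibitor of mTOR, rose by 1.19 (SE 0.26) at a low signal, and Rictor, a subunit of mTORC2, by 0.76 (SE 0.15). In the list of eIF2 kinases and their stress targets, 8 of 15 genes were measured, 1 rose, 1 fell and 6 did not pass. Trib3, a target of the ATF4 arm, rose by 1.43 (SE 0.16), and Ppp1r15a, the GADD34 subunit that directs phosphatase to eIF2, fell by 1.34 (SE 0.20). Among those that did not pass, Ddit3 stood at 0.47 (SE 0.17) and Asns at 0.34 (SE 0.13).

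The authors' deposited table gives for each probe set a signed fold, described in its note as an average over 25 pairwise comparisons. For all 72 member probe sets above the filter its sign was that of the log2 difference, and for 67 its size was within 1.25 times the ratio of mean signals. Among the other 5, for the Rpl7 probe set with the largest difference the authors' deposited table gives a fold of 1.3 where mean signals differed 2.96 times. For Rps18 the authors' deposited table gives −1.5 against a ratio of −2.15, and for Rps15a 1.3 against 1.82.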

How the data were processed

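Per the labels' protocols, biotin-labelled cRNA from cochlear RNA was hybridised to Affymetrix arrays, 1 for each sample. GCOS 1.3 is named in the submitters' processing notes, and the intensities the authors deposited are linear. Their trimmed mean was 1496 on each array, so they had been scaled, to a target that no source used here states. The authors' deposited table adds, per the file headers, for 7806 probe sets chosen on these arrays, a p-value (up to 0.04997) and a fold written as a signed score (negative for lower in GeO2).

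Deposited intensities were then turned into log2(signal + 16), so folds of dim probe sets are understated. The 18015 probe sets with the lowest 40% of means were left out. limma 3.58.1 (R 4.3.3; lmFit, eBayes with trend, two-sided) was fitted on all 10 arrays with Benjamini-Hochberg adjustment over 27022 probe sets, and tested on simulated data. Names come only from that table (7095 probe sets with 1 symbol), updated through RefSeq genes of GRCm38.p6 by accession or synonym; 15 of 75 member probe sets were renamed. Of the member probe sets, 72 passed the filter, and of the 55 genes, 54. Other probe sets of these genes, and ribosomal genes outside the table, were not analysed here.

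Members, lists and tests were chosen with earlier results of these data known. Named by rule were, per role, up to 8 genes with the largest called change, up to 3 that came nearest to a call, genes with probe sets of opposite sign, minority directions and paired symbols; most remaining members are named as well, after their values were seen. Another 2 genes are part of the counts and medians but are not reported here singly or drawn. List genes are named as examples, also after their values were seen. Lists are described by counts and medians without a set test. Alternatives were 2 normalizations, an offset of 1 or 64, a filter of 60% or none, the replicate block, no trend, array weights, a pooled-variance test on linear signals, the mean of probe sets, probe sets without shared-probe endings, and each array left out.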

Additional observations from a re-analysis of the deposited data

Results flagged for a closer look

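In 8 of 144 groups of 5 arrays, 1 array stood apart from the other 4 by Dixon's criterion (gap over range above 0.71); chance gives about 1 in 20. Among controls these were replicate 2 for Ago3 (1363 units, the others 1116 to 1180), replicate 4 for Eif3h (19871 units), replicate 4 for the dimmer Eif4ebp2 probe set (442 units, the others 541 to 557) and replicate 2 for the Rpl7 probe set with the largest difference (17102 units, the others 4464 to 6229). Among GeO2 arrays they were replicate 1 for Eef1a2 (698 units, the others 981 to 1100), replicate 3 for Eif2ak3 (5212 units, the others 3712 to 4057), replicate 1 for Eif3i (10146 units) and replicate 3 for the brighter Rpl35 probe set (22201 units, the others 20530 to 20883).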

How the results depend on the processing

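No member gene changed sign under any alternative run. Over the 54 genes, leaving out single arrays kept 482 results on their side of the threshold, with 44 calls lost and 14 gained; the other alternatives kept 590, with 31 lost and 24 gained. Whichever array was left out, 8 of 15 ribosomal protein calls and 14 of 19 initiation factor calls passed. The same share over all called probe sets was not counted, so these counts describe the members and do not compare the families. With single arrays left out, rises of ribosomal protein genes numbered 3 to 7 and falls 5 to 10, rises of initiation factor genes 8 to 10 and falls 7 to 11, falls of elongation genes 0 to 1, and the count of all probe sets called 2794 (without GeO2 replicate 5; 2815 without control replicate 1) to 4854, of 4408. With 3 arrays left out, chosen after seeing the data, all calls numbered 2285. The pooled-variance test on linear signals gave 3 rises and 5 falls of ribosomal protein genes and 1 elongation gene lower. The median of initiation factor genes, −0.02, became 0.14 with the 60% filter and 0.15 without shared-probe endings, as genes dropped out. Elongation genes called lower, 0 in the main analysis, were 2 with the 60% filter and 1 with array weights. The fit with the replicate number as a block gave 1 as well, with 4431 probe sets called in all, and moved no other count of calls given here by over 1.5 times; deviations of same-numbered arrays from their group means correlated by −0.05 to 0.17, so the numbers were not taken as pairs. The cause of these moves was not tested. Signals near the filter, as for Rpl23 and Eif4e, limit what small differences can be seen.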
